A study of Homo sapiens with 12 samples.

Results

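Glycolysis and pyruvate handling genes were followed in PE/CA-PJ41, a human oral squamous cell carcinoma line, by RNA sequencing of polyadenylated RNA in 12 libraries. The set holds 34 genes chosen by symbol: the carriers that move glucose, lactate and pyruvate, the enzymes that turn glucose into pyruvate and lactate, and the pyruvate dehydrogenase complex with its kinases and 1 phosphatase. These genes were chosen with earlier results of these data known, so their shares beside all genes are not an independent check. All 34 symbols were found among the 20375 genes listed for each library, and all 34 had at least 1 TPM (the usual share of transcripts, scaled to a fixed sum per library and corrected for transcript length) in every library. The PRP group was treated with platelet-rich plasma (PRP) at 10% for 48 h, the plasma group with human plasma at 10% for 48 h, and the control group was untreated, with n = 4 libraries in each group. How long the control cells were cultured is not in the labels, so treated and control cells may differ in time as well. All groups are the same line, and the labels do not say whether replicates were separate cultures or how many donors gave the plasma or the PRP. The p-values therefore measure the spread between these libraries only, which may be technical.

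Glycolysis splits glucose into pyruvate in the cytosol and yields ATP without oxygen. Glucose enters through carriers of the SLC2A family, is trapped by hexokinases, is committed by phosphofructokinase, and then passes through aldolase, triosephosphate isomerase, glyceraldehyde 3-phosphate dehydrogenase, phosphoglycerate kinase and mutase, enolase and pyruvate kinase. Pyruvate is then reduced to lactate, which leaves through monocarboxylate carriers, or enters mitochondria through the pyruvate carrier and is oxidised by pyruvate dehydrogenase, an enzyme that kinases switch off and phosphatases switch on. Squamous carcinoma cells are known for high glucose uptake and lactate release, and many of these genes are textbook targets of hypoxia-inducible factor and MYC.

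Total estimated reads per library ran between 36943548 and 41976136 in PRP, between 36258955 and 41946780 in plasma, and between 40166503 and 41531218 in control. All 9 squamous epithelial markers checked, among them KRT5 at 4531 to 8295 TPM, had at least 1 TPM in every library. Their sum moved with treatment, at 14191 to 15769 TPM in PRP, 14164 to 15486 TPM in plasma and 11545 to 12968 TPM in control. The platelet markers PF4 and GP9, the erythroid markers HBB and ALAS2, and the leukocyte marker CSF3R had 0 reads throughout. All 6 platelet markers together summed to 0.309 to 0.424 TPM in PRP, 0.353 to 0.645 TPM in plasma and 0.488 to 0.718 TPM in control. The sum of the 6 leukocyte markers moved with treatment as well, at 5.84 to 7.21 TPM in PRP, 5.36 to 6.72 TPM in plasma and 2.93 to 4.02 TPM in control. Neither sum overlapped control in either treated group, and the part of either in the results was not tested. CD14 alone ran between 1.02 and 6.27 TPM over all libraries. The 4 fibroblast markers summed to 9.67 to 10.9 TPM in PRP, 10.2 to 13.7 TPM in plasma and 7.67 to 12.5 TPM in control, and the 4 erythroid markers to 1.05 to 2.83 TPM in PRP, 1.17 to 1.92 TPM in plasma and 1.38 to 2.68 TPM in control. Mitochondrially encoded genes took 0.191% to 0.731% of reads in PRP, 0.216% to 0.769% in plasma and 0.287% to 0.969% in control, with the lowest share of each group in the library numbered 1. In bulk RNA, fewer cells that use a gene and less RNA of it per cell cannot be told apart.

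Promoter sequences are shown first for 5 genes, because hypoxia-inducible factor and MYC, the best known regulators of this pathway, bind near glycolytic genes at a core of letters ACGTG and at CACGTG. RefSeq's table (GRCh38.p14) held a promoter for 30 of the 34 genes, leaving out SLC2A3, PFKFB2, SLC16A1 and PDP1, and the 250 bases before the annotated start were searched on both strands, where each CACGTG also counts as 2 overlapping ACGTG matches. The first 4 genes shown are those with at least 2 matches whose RefSeq start lay within 50 bases of a GENCODE transcript start, and TPI1, which has none, stands beside them as a gene of the same pathway. Each line runs 5′ to 3′ on the gene's own strand, and capitals mark ACGTG or its reverse complement CACGT, merged where they overlap.
LDHA: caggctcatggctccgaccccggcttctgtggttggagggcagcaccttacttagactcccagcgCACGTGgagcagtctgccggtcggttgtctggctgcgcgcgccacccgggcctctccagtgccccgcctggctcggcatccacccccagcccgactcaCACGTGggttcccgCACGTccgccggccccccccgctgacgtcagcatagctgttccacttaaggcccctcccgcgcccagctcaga
GAPDH: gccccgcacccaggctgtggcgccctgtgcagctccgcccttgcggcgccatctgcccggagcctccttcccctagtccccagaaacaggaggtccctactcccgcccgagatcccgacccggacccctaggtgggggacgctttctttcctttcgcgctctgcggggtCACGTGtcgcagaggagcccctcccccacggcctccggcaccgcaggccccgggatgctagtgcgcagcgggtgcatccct
ALDOC: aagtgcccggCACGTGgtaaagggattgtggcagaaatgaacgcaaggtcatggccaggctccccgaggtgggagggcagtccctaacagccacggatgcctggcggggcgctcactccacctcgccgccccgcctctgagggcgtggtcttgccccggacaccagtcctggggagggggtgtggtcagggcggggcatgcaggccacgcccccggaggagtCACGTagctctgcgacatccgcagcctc
PDHB: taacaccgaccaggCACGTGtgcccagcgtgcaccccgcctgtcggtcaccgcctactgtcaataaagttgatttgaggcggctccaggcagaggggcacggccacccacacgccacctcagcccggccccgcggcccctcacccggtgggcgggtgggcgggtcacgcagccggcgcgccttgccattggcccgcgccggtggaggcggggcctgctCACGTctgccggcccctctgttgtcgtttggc
TPI1: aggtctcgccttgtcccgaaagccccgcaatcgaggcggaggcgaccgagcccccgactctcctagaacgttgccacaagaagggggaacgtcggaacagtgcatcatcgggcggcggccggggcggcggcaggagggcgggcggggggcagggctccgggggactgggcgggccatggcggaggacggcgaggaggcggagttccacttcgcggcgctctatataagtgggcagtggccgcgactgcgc
These windows lie at chr11:18394313-18394562 (plus strand) for LDHA, chr12:6535014-6535263 (plus strand) for GAPDH, chr17:28576896-28577145 (minus strand) for ALDOC, chr3:58433833-58434082 (minus strand) for PDHB and chr12:6867281-6867530 (plus strand) for TPI1. LDHA had 5 matches, beginning 73, 86, 87, 184 and 185 bases before the start. ALDOC and PDHB had 3 each, and GAPDH had 2, both from a single CACGTG. Of the 30 genes, 11 held ACGTG on either strand, against 18.7% of 27305 promoters of the same length, and 4 held CACGTG, against 6.49%. Those 27305 promoters were not limited to genes with TPM in these libraries, whereas all members had it. The shares are therefore not like for like. The RefSeq start lay within 50 bases of a GENCODE transcript start for 25 of the 30 genes. HK2 and PGK1, which held ACGTG, were not among these 25. The next counts cover only genes with a promoter in RefSeq's table. In PRP against control, 5 of the 16 genes that rose held ACGTG, as did 2 of the 7 that fell and 4 of the 7 that passed in neither direction. In plasma against control 4 of the 13 that rose held it, 3 of the 8 that fell and 4 of the 9 that passed in neither direction. A match describes these letters only and was not tested as a binding site.

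Together the 34 genes made up 2.04 ± 0.03% of all TPM in PRP, 1.99 ± 0.07% in plasma and 1.66 ± 0.04% in control (SD, n = 4 each). The PRP libraries ran between 2.01% and 2.07%, the plasma libraries between 1.92% and 2.07%, and the control libraries between 1.60% and 1.70%, so neither treated group overlapped control. Most of this came from the 9 genes between aldolase and pyruvate kinase, which summed to 16584 ± 228 TPM in PRP, 16286 ± 527 TPM in plasma and 13536 ± 335 TPM in control. GAPDH was the most abundant member, at rank 8 of all genes by mean control TPM. PKM stood at rank 41, ENO1 at rank 84 and ALDOA at rank 99, whereas SLC2A3 stood at rank 10518.

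Differences between groups were tested with limma on log2(TPM + 1) over 12517 genes, and a gene is said to have risen or fallen where the Benjamini-Hochberg adjusted p was under 0.05. Differences are given on that log2 scale with their standard error. In PRP against control 16 of the 34 genes rose and 9 fell, where 21.7% of all tested genes rose and 31.5% fell, 53.1% in either direction. In plasma against control 13 rose and 11 fell, where 20.3% of all tested genes rose and 29% fell, 49.3% in either direction. The median difference of the members was 0.11 in PRP and 0.04 in plasma, beside -0.06 in PRP and -0.05 in plasma over all tested genes. The libraries of PRP and control did not overlap for 23 of the 34 genes, against 46.8% of all tested genes, and those of plasma and control did not overlap for 25, against 43.9%. Both comparisons use the same 4 control libraries. On log2(TPM + 1) no member reached a difference of 1 in either direction, although the mean TPM of SLC2A3 was 0.454 of control in PRP and 0.412 of control in plasma. On the same scale 21 of 34 differed by less than 0.3 in each comparison with control. Centring every library on its median gave 18 genes higher and 6 lower in PRP, and 14 higher and 8 lower in plasma. The median difference of the members was then 0.18 in PRP and 0.10 in plasma, beside 0.01 in each over all tested genes. The same centring moved the share of higher genes among all calls to 54.0% in PRP, against 40.8% on the deposited scale, and to 54.1% in plasma, against 41.2%. Without the 3 libraries numbered 1, 14 rose and 7 fell in PRP, and 13 rose and 10 fell in plasma. The shares of all tested genes called after centring or without these libraries are not given here. Those of the main fit cannot stand in for them.

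**Figure D1:**
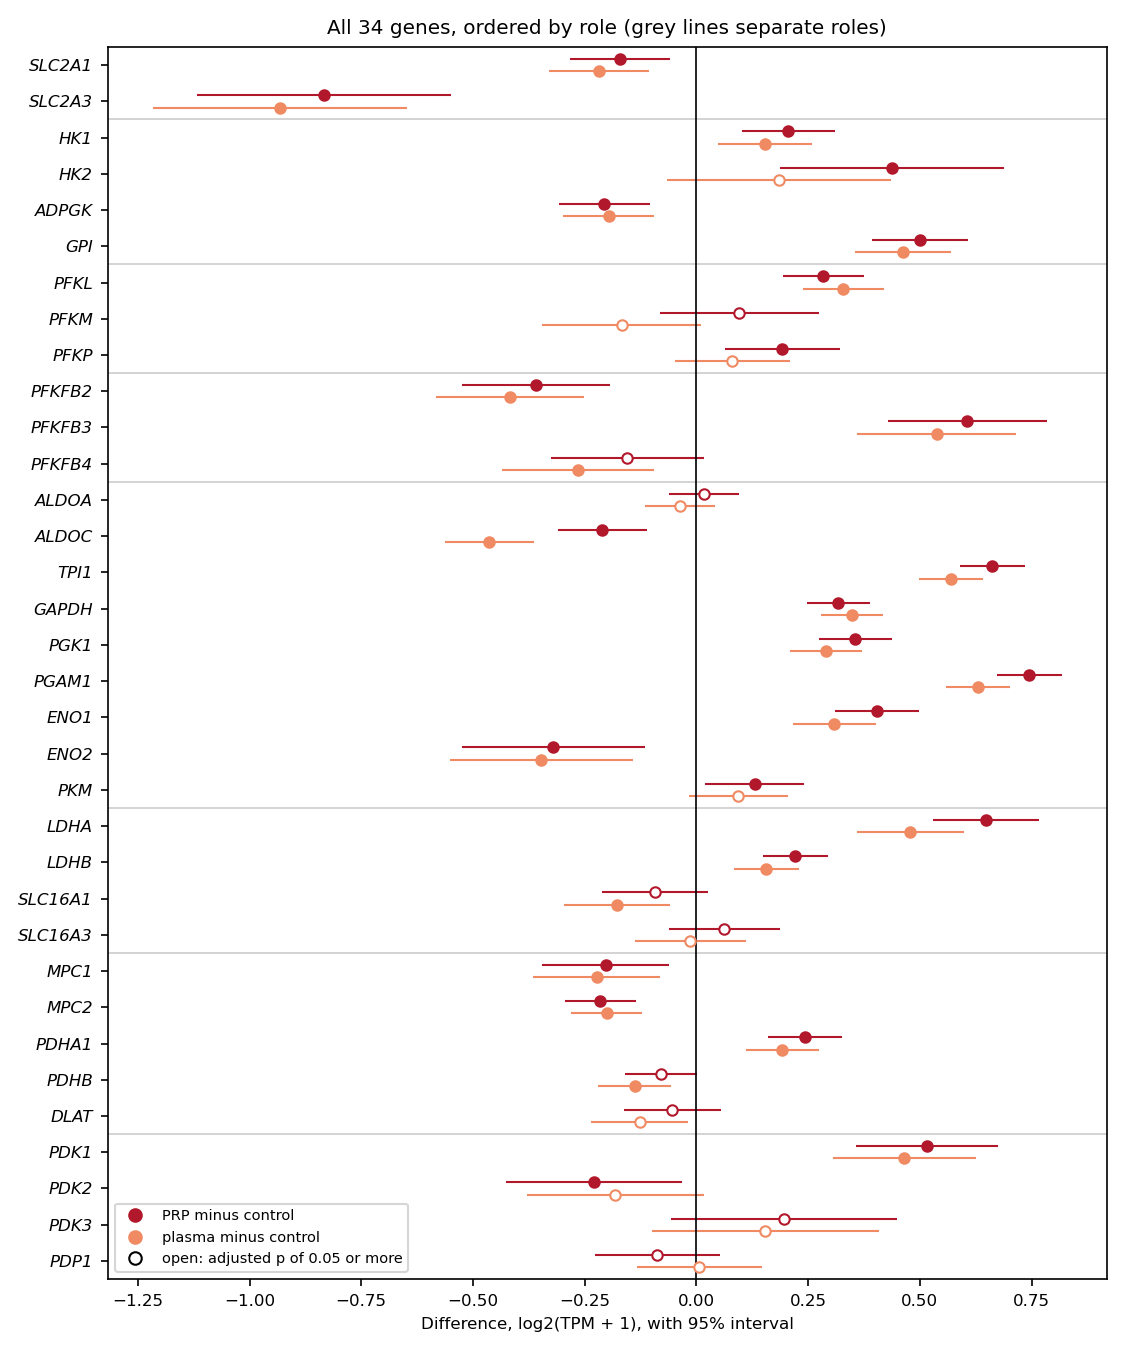
Difference from control of all 34 genes on the log2(TPM + 1) scale, with PRP in red and plasma in orange, points with 95% intervals, genes ordered by role and filled where adjusted p was under 0.05. The largest shifts upward are those of PGAM1 at 0.75 in PRP and 0.63 in plasma, and the largest downward those of SLC2A3 at -0.83 in PRP and -0.93 in plasma.

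Both glucose carriers fell. SLC2A1 encodes GLUT1, the main glucose carrier of most cancer lines. It had 198, 196, 182 and 172 TPM in the PRP libraries, 186, 187, 181 and 169.6 TPM in the plasma libraries, and 199, 204, 224 and 215 TPM in the control libraries. Every treated library lay below the lowest control library, by a narrow margin for PRP, whose highest value was 198 TPM beside 199 TPM. The difference from control was -0.17 ± 0.05 in PRP (adjusted p = 0.0136) and -0.22 ± 0.05 in plasma (adjusted p = 0.00352), and in PRP it no longer passed after median centring (adjusted p = 0.0936) or on estimated reads scaled by median of ratios (adjusted p = 0.0789). SLC2A3, which encodes the high-affinity carrier GLUT3, showed the largest relative change of the set at the lowest level. SLC2A3 had 2.17, 1.90, 1.85 and 2.11 TPM in the PRP libraries, 1.93, 1.36, 1.76 and 2.23 TPM in the plasma libraries, and 5.39, 5.20, 3.36 and 3.74 TPM in the control libraries. All treated libraries lay below all control libraries, and control replicates 1 and 2 stood above control replicates 3 and 4. These levels rest on 186 to 220.4 estimated reads per library in PRP, 115 to 187 in plasma and 324 to 504 in control. The difference for SLC2A3 was -0.83 ± 0.13 in PRP (adjusted p = 0.000132) and -0.93 ± 0.13 in plasma (adjusted p = 6.1e-05), and its mean TPM was 0.454 of control in PRP and 0.412 of control in plasma. SLC2A14, a near-identical copy of SLC2A3, was listed at means of 0.0405 TPM in PRP, 0.0668 TPM in plasma and 0.116 TPM in control, and reads shared between copies could have been split either way.

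Among the genes that trap and isomerise glucose, GPI moved most. GPI encodes glucose-6-phosphate isomerase, which makes fructose 6-phosphate. It had 553, 567, 545 and 512 TPM in the PRP libraries, 539.7, 542, 519 and 519 TPM in the plasma libraries, and 372, 349, 403 and 417 TPM in the control libraries. The lowest treated library, at 512 TPM, stood well above the highest control library, at 417 TPM. The difference was 0.50 ± 0.05 in PRP (adjusted p = 2.1e-06) and 0.46 ± 0.05 in plasma (adjusted p = 5.7e-06). HK1, the widely expressed hexokinase, had 86.5, 82.7, 75.8 and 75.2 TPM in the PRP libraries, 80.1, 77.7, 75.4 and 74.8 TPM in the plasma libraries, and 73.0, 69.0, 66.6 and 68.1 TPM in the control libraries. Its treated libraries all exceeded the control libraries, and the difference was 0.21 ± 0.05 in PRP (adjusted p = 0.00279) and 0.15 ± 0.05 in plasma (adjusted p = 0.0184). The plasma call for HK1 was lost without control replicate 3 (adjusted p = 0.0513) and without plasma replicate 1 (adjusted p = 0.0527).

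HK2 encodes the hexokinase typical of muscle and of many tumours. It had 12.5, 12.1, 10.3 and 8.99 TPM in the PRP libraries, 10.5, 10.6, 8.04 and 7.29 TPM in the plasma libraries, and 7.73, 7.79, 8.18 and 7.46 TPM in the control libraries. In PRP all 4 libraries exceeded control, with replicates 1 and 2 highest, whereas in plasma replicates 1 and 2 stood above control and replicates 3 and 4 did not. The difference for HK2 was 0.44 ± 0.12 in PRP (adjusted p = 0.00605) and 0.18 ± 0.12 in plasma (adjusted p = 0.207), so that it rose in PRP and did not pass in plasma. On estimated reads scaled by median of ratios it passed in both, at 0.57 in PRP and 0.28 in plasma (voom adjusted p = 0.000291 in PRP and 0.0385 in plasma). On reads scaled by their total, HK2 passed in PRP and not in plasma. PRP and plasma themselves differed by 0.25 ± 0.12 (adjusted p = 0.619), which did not pass. ADPGK, the ADP-dependent glucokinase, had 47.4, 45.8, 45.2 and 48.2 TPM in the PRP libraries, 48.2, 48.8, 47.0 and 44.0 TPM in the plasma libraries, and 51.2, 54.5, 58.0 and 52.5 TPM in the control libraries. Its control libraries all lay above the treated ones, and the difference was -0.21 ± 0.05 in PRP (adjusted p = 0.00225) and -0.20 ± 0.05 in plasma (adjusted p = 0.0037). In PRP the ADPGK call missed the threshold on estimated reads scaled by median of ratios (adjusted p = 0.0525).

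**Figure D2:**
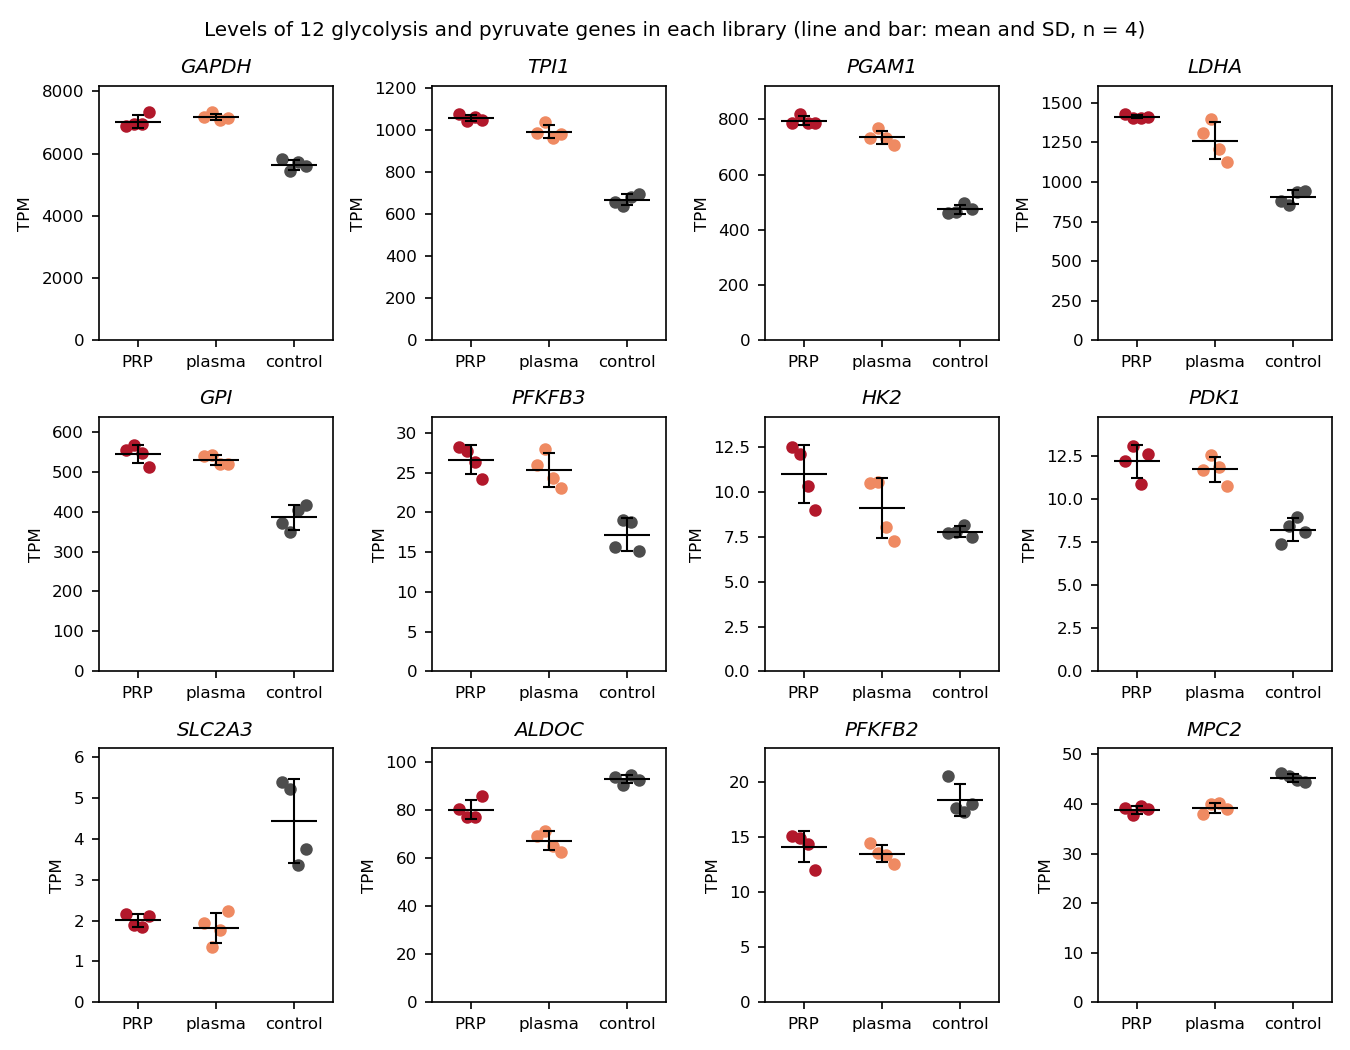
TPM of 12 of the genes in each library, with axes starting at 0, PRP in red, plasma in orange and control in grey, and lines and bars for the mean and SD of 4 libraries. In LDHA the PRP libraries sit between 1404 and 1430.4 TPM, the plasma libraries spread between 1127 and 1399.6 TPM, and the control libraries stay at or below 939.6 TPM.

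The 3 phosphofructokinase genes, whose subunits form the enzyme that commits sugar to glycolysis, were called differently. PFKL, the liver-type subunit, had 93.3, 90.8, 85.7 and 85.2 TPM in the PRP libraries, 92.3, 94.7, 92.6 and 86.4 TPM in the plasma libraries, and 72.7, 74.7, 73.8 and 69.4 TPM in the control libraries. Both treated groups lay above control without overlap. The difference for PFKL was 0.28 ± 0.04 in PRP (adjusted p = 7.4e-05) and 0.33 ± 0.04 in plasma (adjusted p = 2.6e-05). PFKP, the platelet-type subunit, had 67.2, 69.9, 65.6 and 63.1 TPM in the PRP libraries, 66.1, 66.5, 57.1 and 56.5 TPM in the plasma libraries, and 54.9, 57.0, 62.0 and 58.2 TPM in the control libraries. All PRP libraries exceeded all control libraries, whereas 2 of the 4 plasma libraries fell within the control range. The difference for PFKP was 0.19 ± 0.06 in PRP (adjusted p = 0.0148) and 0.08 ± 0.06 in plasma (adjusted p = 0.284), and the PRP call was lost when the 3 libraries numbered 1 were dropped (adjusted p = 0.0679). On estimated reads scaled by median of ratios PFKP also passed in plasma, at 0.15 (voom adjusted p = 0.0258), but not on reads scaled by their total. PFKM, the muscle-type subunit, had 30.4, 26.5, 25.4 and 25.8 TPM in the PRP libraries, 22.2, 24.2, 21.4 and 21.4 TPM in the plasma libraries, and 29.6, 25.2, 21.7 and 24.7 TPM in the control libraries. Its difference of 0.10 ± 0.08 in PRP (adjusted p = 0.35) and -0.17 ± 0.08 in plasma (adjusted p = 0.111) did not pass in either comparison. Without control replicate 3 PFKM passed in plasma (adjusted p = 0.0266). Unlike PFKL and PFKP, PFKM had its PRP libraries all above its plasma libraries, by 0.26 ± 0.08 (adjusted p = 0.423), which did not pass.

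The 6-phosphofructo-2-kinase/fructose-2,6-bisphosphatase genes make and degrade the strongest activator of phosphofructokinase, and they changed in opposite directions. PFKFB3, the family member with the highest kinase activity relative to phosphatase, had 28.3, 27.7, 26.3 and 24.2 TPM in the PRP libraries, 26.0, 28.0, 24.3 and 23.1 TPM in the plasma libraries, and 15.7, 19.1, 18.8 and 15.2 TPM in the control libraries. Its lowest treated library, at 23.1 TPM, exceeded its highest control library, at 19.1 TPM. PFKFB3 differed by 0.61 ± 0.08 in PRP (adjusted p = 3.5e-05) and 0.54 ± 0.08 in plasma (adjusted p = 0.000121). PFKFB2, known best from heart, had 15.1, 14.9, 14.3 and 12.0 TPM in the PRP libraries, 14.4, 13.5, 13.4 and 12.5 TPM in the plasma libraries, and 20.5, 17.6, 17.2 and 17.9 TPM in the control libraries. Here every control library lay above every treated one, and the difference was -0.36 ± 0.08 in PRP (adjusted p = 0.00142) and -0.42 ± 0.08 in plasma (adjusted p = 0.000543). PFKFB4 had 6.55, 7.10, 7.53 and 7.92 TPM in the PRP libraries, 6.45, 5.92, 6.98 and 7.30 TPM in the plasma libraries, and 7.93, 7.71, 8.15 and 9.01 TPM in the control libraries. Its plasma libraries lay below control and its PRP libraries reached into the control range. The difference for PFKFB4 was -0.15 ± 0.08 in PRP (adjusted p = 0.117) and -0.27 ± 0.08 in plasma (adjusted p = 0.0133), with the plasma call lost after median centring (adjusted p = 0.081) and the PRP call gained on estimated reads (voom adjusted p = 0.0152). PFKFB3 thus made up 55.4 ± 0.9% of the summed TPM of the 3 genes in PRP, 55.7 ± 2.3% in plasma and 39.3 ± 4.1% in control.

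TPI1, GAPDH, PGK1, PGAM1 and ENO1 rose in both comparisons with control. TPI1 lies at chr12:6867119-6870948 on the plus strand (GRCh38, GENCODE release 29) and encodes triosephosphate isomerase, which interconverts the 3-carbon products of aldolase. It had 1076, 1043, 1062 and 1044 TPM in the PRP libraries, 984, 1036, 962 and 979.8 TPM in the plasma libraries, and 658, 638, 678 and 696 TPM in the control libraries. The lowest treated library, at 962 TPM, stood far above the highest control library, at 696 TPM. The difference for TPI1 was 0.66 ± 0.03 in PRP (adjusted p = 5.3e-09) and 0.57 ± 0.03 in plasma (adjusted p = 2.5e-08). GAPDH, at chr12:6533927-6538374, encodes the dehydrogenase that makes the NADH of the pathway and is often used as a reference gene. GAPDH had 6879.5, 6959.6, 6934 and 7330.3 TPM in the PRP libraries, 7181, 7323, 7075 and 7128 TPM in the plasma libraries, and 5814, 5425, 5714 and 5602 TPM in the control libraries. The lowest treated library, at 6879.5 TPM, stood above the highest control library, at 5814 TPM. The difference for GAPDH was 0.32 ± 0.03 in PRP (adjusted p = 2.7e-06) and 0.35 ± 0.03 in plasma (adjusted p = 1.5e-06).

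PGK1, a phosphoglycerate kinase and an ATP-yielding step, had 239, 242, 238 and 231 TPM in the PRP libraries, 233, 239, 218 and 218 TPM in the plasma libraries, and 182, 178, 192 and 190.3 TPM in the control libraries. The groups of treated and control libraries did not overlap. The difference for PGK1 was 0.36 ± 0.04 in PRP (adjusted p = 3.7e-06) and 0.29 ± 0.04 in plasma (adjusted p = 3.0e-05). PGAM1, at chr10:97426160-97433441, encodes phosphoglycerate mutase and had the largest rise of the set. It had 788, 819, 786 and 788 TPM in the PRP libraries, 732, 767, 732 and 708 TPM in the plasma libraries, and 461, 463, 497 and 476 TPM in the control libraries. Its mean TPM was 1.68 times control in PRP and 1.55 times control in plasma. The difference was 0.75 ± 0.03 in PRP (adjusted p = 2.5e-09) and 0.63 ± 0.03 in plasma (adjusted p = 1.0e-08). PGAM4, a near-identical copy, was listed at means of 0.731 TPM in PRP, 0.639 TPM in plasma and 0.815 TPM in control. ENO1, the widely expressed enolase, had 2570.1, 2533, 2463 and 2323 TPM in the PRP libraries, 2376, 2449, 2229 and 2205 TPM in the plasma libraries, and 1820.1, 1797, 1943 and 1911 TPM in the control libraries. All treated libraries of ENO1 exceeded all control libraries, with a difference of 0.40 ± 0.04 in PRP (adjusted p = 4.1e-06) and 0.31 ± 0.04 in plasma (adjusted p = 5.7e-05).

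The aldolase genes and ENO2 did not rise. ALDOA, the main aldolase of these cells, averaged 1576 ± 48.8 TPM in PRP, 1519 ± 57.4 TPM in plasma and 1559 ± 51.4 TPM in control (SD, n = 4 each). Its differences were 0.02 ± 0.04 in PRP (adjusted p = 0.729) and -0.04 ± 0.04 in plasma (adjusted p = 0.418), and neither passed. ALDOC, the aldolase best known from brain, lies at chr17:28573115-28577264 on the minus strand and had 80.6, 77.4, 77.3 and 86.0 TPM in the PRP libraries, 69.5, 71.5, 65.3 and 62.9 TPM in the plasma libraries, and 93.9, 90.8, 94.7 and 92.8 TPM in the control libraries. Control was highest, PRP intermediate and plasma lowest, with no overlap between any pair of groups. The difference of ALDOC from control was -0.21 ± 0.05 in PRP (adjusted p = 0.00175) and -0.46 ± 0.05 in plasma (adjusted p = 2.9e-06). ENO2, the enolase known from neurons, had 11.9, 11.6, 12.0 and 9.70 TPM in the PRP libraries, 11.8, 12.7, 11.1 and 8.85 TPM in the plasma libraries, and 13.3, 14.8, 14.4 and 14.7 TPM in the control libraries. All treated libraries of ENO2 lay below control, and the difference was -0.32 ± 0.10 in PRP (adjusted p = 0.0115) and -0.35 ± 0.10 in plasma (adjusted p = 0.00802).

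PKM encodes the pyruvate kinase that ends the pathway. It had 3532, 3483, 3254 and 3049.7 TPM in the PRP libraries, 3426, 3413, 3129 and 3011 TPM in the plasma libraries, and 3011, 2957, 3129 and 3049 TPM in the control libraries. In both treated groups replicates 1, 2 and 3 stood above every control library, in plasma replicate 3 by under 1 TPM, and replicate 4 fell within the control range. The difference for PKM was 0.13 ± 0.05 in PRP (adjusted p = 0.0456) and 0.09 ± 0.05 in plasma (adjusted p = 0.148). The PRP call for PKM was lost, with adjusted p between 0.0525 and 0.135, when any 1 of control replicates 1, 2 and 4, plasma replicate 3 or PRP replicates 1, 2 and 3 was left out. It was also lost without a filter on low values (adjusted p = 0.0905) and when the 3 libraries numbered 1 were dropped (adjusted p = 0.18). On estimated reads scaled by median of ratios the difference for PKM was 0.26 in PRP and 0.21 in plasma and passed in both (voom adjusted p = 6.9e-05 in PRP and 0.00049 in plasma). In plasma PKM also passed after median centring (adjusted p = 0.0174) and on reads scaled by their total (voom adjusted p = 0.00139).

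Both lactate dehydrogenase genes rose in both comparisons. LDHA, at chr11:18394388-18408425 on the plus strand, encodes the subunit that favours lactate formation. It had 1430.4, 1404, 1406 and 1410.4 TPM in the PRP libraries, 1306, 1399.6, 1209.8 and 1127 TPM in the plasma libraries, and 877, 852, 939 and 939.6 TPM in the control libraries. The PRP libraries were tightly grouped and lay above all plasma libraries, which spread widely and lay above all control libraries. The difference of LDHA from control was 0.65 ± 0.06 in PRP (adjusted p = 5.0e-07) and 0.48 ± 0.06 in plasma (adjusted p = 9.9e-06), and its mean TPM was 1.57 times control in PRP and 1.40 times control in plasma. LDHB, which encodes the subunit abundant in heart, had 839, 860.0, 849.5 and 822 TPM in the PRP libraries, 783, 806, 823 and 809 TPM in the plasma libraries, and 701, 690.3, 751 and 749 TPM in the control libraries. Every treated library of LDHB exceeded every control library, with a difference of 0.22 ± 0.03 in PRP (adjusted p = 9.5e-05) and 0.16 ± 0.03 in plasma (adjusted p = 0.00172). LDHA made up 62.6 ± 0.6% of the TPM of the 2 genes in PRP, 60.9 ± 2.5% in plasma and 55.5 ± 0.2% in control. Within each group this share ran between 62.0% and 63.2% in PRP, 58.2% and 63.4% in plasma, and 55.3% and 55.6% in control.

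The monocarboxylate carriers that move lactate and pyruvate across the cell membrane differed little from control. SLC16A1 encodes MCT1 and had 56.7, 51.5, 53.0 and 48.5 TPM in the PRP libraries, 53.4, 51.7, 46.0 and 46.6 TPM in the plasma libraries, and 55.3, 57.0, 56.4 and 55.0 TPM in the control libraries. Its plasma libraries lay below control, whereas its PRP libraries overlapped it. The difference for SLC16A1 was -0.09 ± 0.06 in PRP (adjusted p = 0.175) and -0.18 ± 0.06 in plasma (adjusted p = 0.0168). The plasma call was lost without plasma replicate 3 (adjusted p = 0.0577) and without plasma replicate 4 (adjusted p = 0.0544). SLC16A3, which encodes MCT4, the lactate exporter of glycolytic cells, averaged 39.9 ± 2.08 TPM in PRP, 37.9 ± 2.82 TPM in plasma and 38.2 ± 1.82 TPM in control (SD, n = 4 each). Its differences of 0.06 ± 0.06 in PRP (adjusted p = 0.383) and -0.01 ± 0.06 in plasma (adjusted p = 0.861) did not pass. On estimated reads scaled by median of ratios, however, SLC16A3 passed in PRP at 0.16 (voom adjusted p = 0.0039). It also passed in PRP after median centring (adjusted p = 0.0377) and on reads scaled by their total (voom adjusted p = 0.0254).

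**Figure D3:**
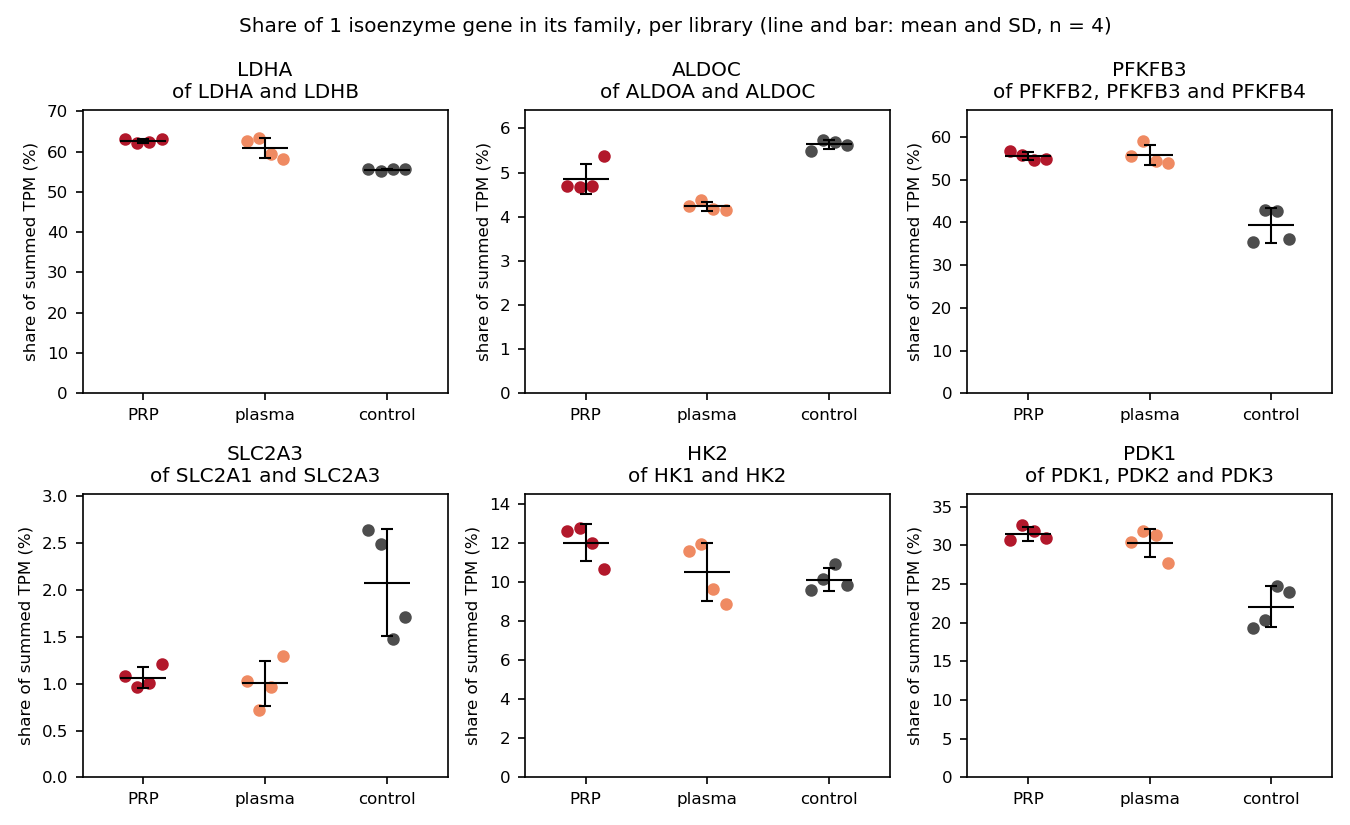
Share of 1 gene in the summed TPM of its family in each library, in percent with axes starting at 0, PRP in red, plasma in orange and control in grey, and lines and bars for the mean and SD of 4 libraries. LDHA, PFKFB3 and PDK1 took larger shares in every treated library than in any control library, ALDOC and SLC2A3 smaller ones, and the share of HK2 overlapped between groups.

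Both genes of the mitochondrial pyruvate carrier, MPC1 and MPC2, whose products pair in the inner membrane, fell. MPC2 had 39.2, 37.7, 39.5 and 39.0 TPM in the PRP libraries, 38.0, 39.9, 40.1 and 38.9 TPM in the plasma libraries, and 46.2, 45.6, 44.8 and 44.4 TPM in the control libraries. The highest treated library of MPC2 had 40.1 TPM and the lowest control library 44.4 TPM. The difference for MPC2 was -0.21 ± 0.04 in PRP (adjusted p = 0.000246) and -0.20 ± 0.04 in plasma (adjusted p = 0.000495). MPC1 had 35.5, 38.0, 43.2 and 40.3 TPM in the PRP libraries, 34.2, 41.3, 39.6 and 39.7 TPM in the plasma libraries, and 47.0, 43.3, 44.3 and 46.4 TPM in the control libraries. The highest PRP library of MPC1, at 43.2 TPM, came close to the lowest control library, at 43.3 TPM. The difference was -0.20 ± 0.07 in PRP (adjusted p = 0.0191) and -0.22 ± 0.07 in plasma (adjusted p = 0.0125). The calls for MPC1 were lost in PRP without PRP replicate 1 (adjusted p = 0.0632), and in both comparisons after median centring (adjusted p = 0.169 in PRP and 0.106 in plasma) and when the 3 libraries numbered 1 were dropped (adjusted p = 0.061 in PRP and 0.0511 in plasma). On estimated reads scaled by median of ratios MPC1 had -0.14 in PRP and -0.16 in plasma (voom adjusted p = 0.145 in PRP and 0.0935 in plasma). On reads scaled by their total the plasma call for MPC1 was kept and the PRP call was lost (voom adjusted p = 0.0608).

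The genes of the pyruvate dehydrogenase complex, which oxidises pyruvate to acetyl-CoA, were split. PDHA1 encodes the catalytic alpha subunit that the kinases phosphorylate. It had 89.0, 90.1, 90.2 and 90.7 TPM in the PRP libraries, 90.4, 87.1, 84.4 and 85.5 TPM in the plasma libraries, and 75.7, 71.5, 76.6 and 80.0 TPM in the control libraries. Treated libraries all exceeded control, and the difference was 0.24 ± 0.04 in PRP (adjusted p = 0.000118) and 0.19 ± 0.04 in plasma (adjusted p = 0.000899). PDHB, the beta subunit of the same enzyme, had 61.9, 64.2, 62.6 and 65.9 TPM in the PRP libraries, 62.9, 61.4, 60.1 and 60.0 TPM in the plasma libraries, and 70.8, 67.3, 65.8 and 65.6 TPM in the control libraries. Its plasma libraries lay below control and 1 PRP library, at 65.9 TPM, reached into the control range. The difference for PDHB was -0.08 ± 0.04 in PRP (adjusted p = 0.088) and -0.14 ± 0.04 in plasma (adjusted p = 0.00759), and the plasma call was lost after median centring (adjusted p = 0.103) and on estimated reads scaled by median of ratios (voom adjusted p = 0.156). It was kept on reads scaled by their total. DLAT, the acetyltransferase core of the complex, averaged 29.2 ± 1.17 TPM in PRP, 27.7 ± 1.58 TPM in plasma and 30.3 ± 1.05 TPM in control (SD, n = 4 each). Its differences were -0.05 ± 0.05 in PRP (adjusted p = 0.393) and -0.13 ± 0.05 in plasma (adjusted p = 0.0513), and neither passed. In plasma the DLAT libraries did not overlap control, and the call was gained without plasma replicate 1 (adjusted p = 0.0321) or PRP replicate 4 (adjusted p = 0.0466). It was also gained with a filter of 5 TPM in 4 libraries (adjusted p = 0.0499) and on estimated reads scaled by their total (voom adjusted p = 0.0258).

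Of the pyruvate dehydrogenase kinases, which switch the complex off, PDK1 rose. It had 12.2, 13.1, 10.9 and 12.6 TPM in the PRP libraries, 11.7, 12.6, 11.8 and 10.8 TPM in the plasma libraries, and 7.37, 8.40, 8.96 and 8.10 TPM in the control libraries. Its lowest treated library, at 10.8 TPM, exceeded its highest control library, at 8.96 TPM. The difference for PDK1 was 0.52 ± 0.07 in PRP (adjusted p = 5.7e-05) and 0.47 ± 0.07 in plasma (adjusted p = 0.000164). PDK2, the most abundant kinase gene of the 3, had 20.9, 19.3, 17.7 and 22.8 TPM in the PRP libraries, 20.3, 19.6, 21.0 and 22.4 TPM in the plasma libraries, and 25.3, 27.7, 21.96 and 20.5 TPM in the control libraries. Its libraries overlapped between groups in both comparisons. The difference for PDK2 was -0.23 ± 0.09 in PRP (adjusted p = 0.0492) and -0.18 ± 0.09 in plasma (adjusted p = 0.118). The PRP call for PDK2 was lost under 16 of 22 alternatives, among them leaving out any 1 plasma library, control replicate 1 or 2, or PRP replicate 1, 2 or 3 (adjusted p between 0.0536 and 0.161), and in plasma it was gained without control replicate 4 (adjusted p = 0.0405). PDK1 made up 31.5 ± 0.9% of the summed TPM of the 3 kinase genes in PRP, 30.3 ± 1.8% in plasma and 22.1 ± 2.7% in control.

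PDK3 averaged 6.29 ± 1.13 TPM in PRP, 6.08 ± 1.06 TPM in plasma and 5.31 ± 0.219 TPM in control (SD, n = 4 each), and its differences of 0.20 ± 0.12 in PRP (adjusted p = 0.179) and 0.15 ± 0.12 in plasma (adjusted p = 0.297) did not pass, although PRP passed narrowly after median centring (adjusted p = 0.0489). PDP1, the phosphatase that switches the complex back on, averaged 106 ± 2.52 TPM in PRP, 114 ± 12.2 TPM in plasma and 113 ± 7.07 TPM in control (SD, n = 4 each). Replicates 1 and 2 of PDP1 in plasma, at 124 and 125 TPM, stood apart from replicates 3 and 4, both at 103 TPM. Its differences were -0.09 ± 0.07 in PRP (adjusted p = 0.273) and 0.01 ± 0.07 in plasma (adjusted p = 0.938), and neither passed.

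TPM moves with the effective length assigned to a gene as well as with its reads, so both were set side by side. For all 25 genes called in PRP and all 24 called in plasma, the difference in estimated reads had the same sign as that in TPM. On reads scaled by median of ratios, 17 of the 34 genes were higher and 6 lower in PRP, and 16 were higher and 9 lower in plasma (voom, adjusted p under 0.05). The shares of all tested genes called on this scale are not given here. Those on log2(TPM + 1) cannot stand in for them. The median difference over all tested genes was 0.002 in PRP and 0.004 in plasma on these reads, against -0.06 in PRP and -0.05 in plasma on log2(TPM + 1). Effective length shifted by more than 0.1 on the log2 scale for PFKM, PFKFB4 and PDK3 in PRP, and for PFKFB4, PDK1 and PDK3 in plasma. PDK3 had the largest shift, and its sign turned with the scale. Its TPM differed by 0.20 in PRP and 0.15 in plasma, its reads by -0.07 in PRP and -0.12 in plasma, and its length by -0.38 in PRP and -0.37 in plasma. For SLC2A3 the reads fell further than log2(TPM + 1), by 1.0 in PRP and by 1.27 in plasma, since the added 1 TPM damps a gene at this level. Of the 34 genes, 11 overlap another gene of the list of all genes, and no source used here says if strand was used in counting. Processed pseudogenes of GAPDH and other members were not analysed here.

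**Figure D4:**
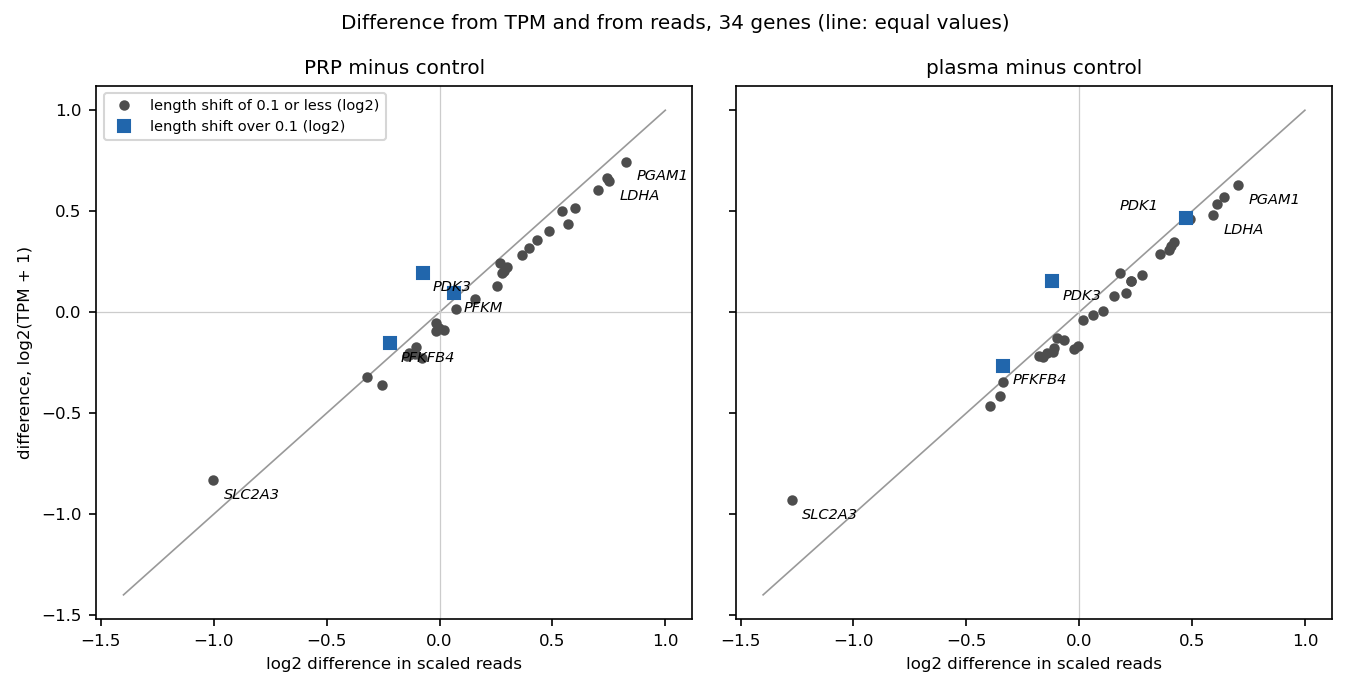
Difference from control in log2(TPM + 1), on the vertical axis, against the log2 difference in scaled estimated reads, on the horizontal axis, for the 34 genes in PRP (left) and plasma (right), with a line of equal values and blue squares where effective length shifted by more than 0.1. Most points lie just under the line, SLC2A3 lies at -1.0 in reads in PRP and -1.27 in plasma, and PDK3 is the square with reads below 0 and TPM above 0.

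PRP, a plasma enriched in platelets, was then compared with plasma itself. Of the 34 members 0 passed in PRP against plasma, where 8 of 12517 genes did, or 0.0639%, all higher in PRP. At an unadjusted p under 0.05 there were 7 members and 999 genes of all, and voom on estimated reads also called 0 members. The 95% interval of the difference lay within 0.5 on the log2 scale in both directions for 33 of the 34 genes, and over all members the interval bounds ran between -0.25 and 0.50. The difference was above 0 for 28 of the 34 members, or 82.4%, against 48.0% of all tested genes, with a median of 0.06 against -0.00. Libraries of PRP and plasma did not overlap for 5 members, PFKM, ALDOC, TPI1, PGAM1 and LDHA, against 5.22% of all tested genes. In all 5 the PRP libraries were the higher ones.

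The smallest adjusted p was that of ALDOC, whose PRP libraries lay between 77.3 and 86.0 TPM and whose plasma libraries lay between 62.9 and 71.5 TPM. ALDOC differed by 0.25 ± 0.05 (adjusted p = 0.0771), and by 0.26 on estimated reads (voom adjusted p = 0.0558). For LDHA the difference was 0.17 ± 0.06 (adjusted p = 0.428), with a 95% interval of 0.05 to 0.29. For PGAM1 it was 0.11 ± 0.03 (adjusted p = 0.363). For TPI1 it was 0.09 ± 0.03 (adjusted p = 0.482). PFKM had the largest value of the 34, and its effective length shifted by -0.21 in the same comparison, while its reads differed by 0.07 (voom adjusted p = 0.674). GAPDH, at -0.03 ± 0.03 (adjusted p = 0.894), was among the 6 members that were lower in PRP than in plasma.

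**Figure D5:**
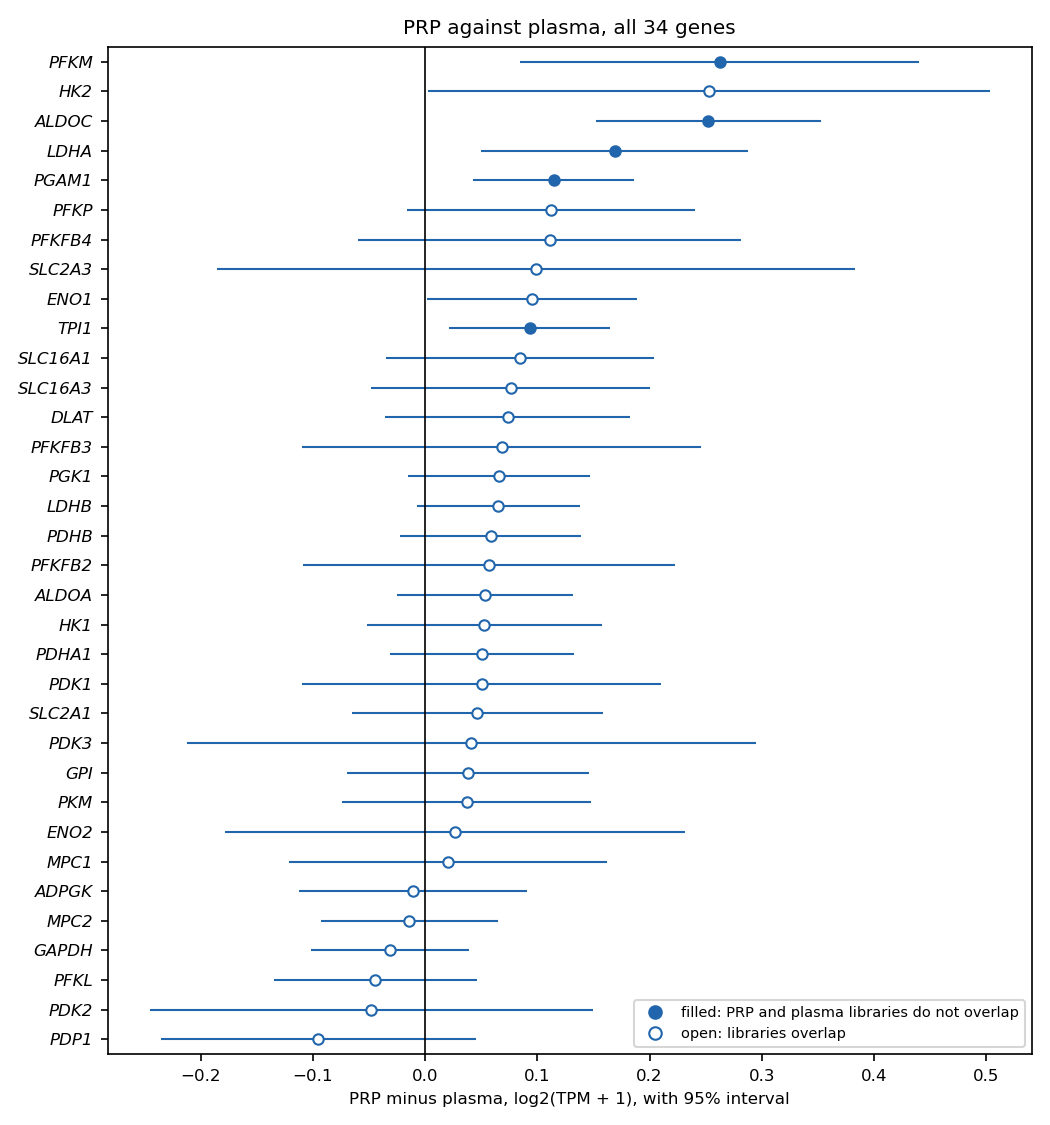
Difference between PRP and plasma for the 34 genes on the log2(TPM + 1) scale, sorted by size, with 95% intervals and filled points where the 4 PRP and 4 plasma libraries did not overlap. The points run between 0.26 for PFKM and -0.09 for PDP1, 28 of 34 lie above 0, and none passed the adjusted threshold.

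Neighbouring pathways were read from 8 gene lists outside the 34. Their counts stand beside 21.7% of all tested genes higher and 31.5% lower in PRP, and 20.3% higher and 29% lower in plasma. Carrier genes had 2 of 8 tested higher and 1 lower in PRP, and 2 higher and 2 lower in plasma. BSG, which encodes basigin, the chaperone that brings MCT1 and MCT4 to the membrane, averaged 929 ± 15.4 TPM in PRP, 922 ± 7.45 TPM in plasma and 669 ± 8.74 TPM in control (SD, n = 4 each). Its difference was 0.47 ± 0.03 in PRP (adjusted p = 8.1e-09) and 0.46 ± 0.03 in plasma (adjusted p = 1.4e-08). SLC2A9, a urate and hexose carrier, differed by 0.60 ± 0.09 in PRP (adjusted p = 0.000101) and 0.44 ± 0.09 in plasma (adjusted p = 0.00127). SLC2A6, a hexose carrier of the same family, differed by -0.19 ± 0.08 in PRP (adjusted p = 0.0696) and -0.51 ± 0.08 in plasma (adjusted p = 0.000198). EMB, which encodes the related chaperone embigin, differed by -0.11 ± 0.04 in PRP (adjusted p = 0.0153) and -0.18 ± 0.04 in plasma (adjusted p = 0.0011), so that it fell in both while BSG rose in both. Of 4 tested isoenzyme genes outside the members, TIGAR, a fructose bisphosphatase, and BPGM, the bisphosphoglycerate mutase, fell in both comparisons and 0 rose.

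In the pentose phosphate pathway, which branches off at glucose 6-phosphate and makes NADPH and ribose, 1 of 7 tested genes rose in each comparison. PGD, a dehydrogenase that makes NADPH, averaged 261 ± 11.1 TPM in PRP, 241 ± 6.36 TPM in plasma and 339 ± 6.76 TPM in control (SD, n = 4 each). It differed by -0.37 ± 0.03 in PRP (adjusted p = 1.1e-06) and -0.49 ± 0.03 in plasma (adjusted p = 1.3e-07). TKT, the transketolase, differed by -0.33 ± 0.04 in PRP (adjusted p = 6.4e-06) and -0.29 ± 0.04 in plasma (adjusted p = 3.0e-05). PGLS, the lactonase, and RPIA, the ribose isomerase, fell in both, as did PGD and TKT. The gene that rose was RPE, ribulose phosphate epimerase, which differed by 0.32 ± 0.05 in PRP (adjusted p = 0.000136) and 0.28 ± 0.05 in plasma (adjusted p = 0.000397). GPI, which leads glucose 6-phosphate onward into glycolysis, rose in the same libraries.

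Other enzymes that use or make pyruvate had 0 of 8 tested genes higher, with 4 lower in PRP and 5 lower in plasma. ME1, the cytosolic malic enzyme, averaged 36.3 ± 1.81 TPM in PRP, 36.5 ± 1.75 TPM in plasma and 53.5 ± 1.82 TPM in control (SD, n = 4 each). It differed by -0.55 ± 0.05 in PRP (adjusted p = 6.5e-07) and -0.54 ± 0.05 in plasma (adjusted p = 9.0e-07). PDP2, a further pyruvate dehydrogenase phosphatase, differed by -0.58 ± 0.14 in PRP (adjusted p = 0.00317) and -0.49 ± 0.14 in plasma (adjusted p = 0.0104). GPT2, an alanine aminotransferase, passed in plasma and differed by -0.03 ± 0.06 in PRP (adjusted p = 0.728) and -0.24 ± 0.06 in plasma (adjusted p = 0.00744). DLD, a further component of the dehydrogenase complex, passed in PRP and differed by -0.13 ± 0.04 in PRP (adjusted p = 0.00957) and -0.07 ± 0.04 in plasma (adjusted p = 0.141). ME2, a mitochondrial malic enzyme, also fell in both, and PC, pyruvate carboxylase, in plasma. Gluconeogenesis genes had 1 of 4 tested higher and 2 lower in PRP, and 0 higher and 2 lower in plasma. PCK2, mitochondrial phosphoenolpyruvate carboxykinase, differed by -0.56 ± 0.06 in PRP (adjusted p = 7.6e-06) and -0.53 ± 0.06 in plasma (adjusted p = 1.6e-05). SLC37A4, the glucose 6-phosphate carrier, differed by -0.20 ± 0.06 in PRP (adjusted p = 0.0113) and -0.18 ± 0.06 in plasma (adjusted p = 0.0198). G6PC3, a glucose 6-phosphatase, differed by 0.19 ± 0.07 in PRP (adjusted p = 0.0409) and 0.15 ± 0.07 in plasma (adjusted p = 0.108).

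Glycogen genes had 4 of 9 tested higher and 1 lower in PRP, and 4 higher and 3 lower in plasma. PGM1 and PGM2, the phosphoglucomutases, GYG1, the glycogenin that primes glycogen, and PYGL, a glycogen phosphorylase, rose in both. GBE1, the branching enzyme, and PYGB, a further phosphorylase, fell in plasma. PGM1 averaged 63.5 ± 3.90 TPM in PRP, 60.5 ± 3.39 TPM in plasma and 41.8 ± 1.64 TPM in control (SD, n = 4 each), and its difference was 0.59 ± 0.05 in PRP (adjusted p = 7.6e-07) and 0.52 ± 0.05 in plasma (adjusted p = 3.1e-06). Tricarboxylic acid cycle genes had 7 of 17 tested higher and 1 lower in each comparison. SUCLG1, a succinate-CoA ligase subunit, averaged 124 ± 2.42 TPM in PRP, 123 ± 4.59 TPM in plasma and 87.1 ± 0.663 TPM in control (SD, n = 4 each). It differed by 0.50 ± 0.03 in PRP (adjusted p = 5.3e-08) and 0.49 ± 0.03 in plasma (adjusted p = 9.4e-08). SUCLG2, a partner subunit, differed by 0.19 ± 0.04 in PRP (adjusted p = 0.00221) and 0.22 ± 0.04 in plasma (adjusted p = 0.00105). SDHD, a succinate dehydrogenase subunit, differed by 0.18 ± 0.04 in PRP (adjusted p = 0.00231) and 0.24 ± 0.04 in plasma (adjusted p = 0.000264). The gene that fell was OGDH, the oxoglutarate dehydrogenase, which differed by -0.37 ± 0.07 in PRP (adjusted p = 0.000306) and -0.35 ± 0.07 in plasma (adjusted p = 0.000581).

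Regulators of glycolytic transcription had 1 of 9 tested higher and 4 lower in PRP, and 0 higher and 3 lower in plasma. Of all tested genes 31.5% were lower in PRP and 29% in plasma, so the count of lower genes in plasma is near that share. HIF1A, the oxygen-regulated subunit of hypoxia-inducible factor, differed by -0.15 ± 0.06 in PRP (adjusted p = 0.0423) and -0.20 ± 0.06 in plasma (adjusted p = 0.0132). ARNT, its partner, differed by -0.21 ± 0.07 in PRP (adjusted p = 0.021) and -0.09 ± 0.07 in plasma (adjusted p = 0.298). MLX, the partner of the glucose-sensing factors MondoA and ChREBP, differed by -0.27 ± 0.05 in PRP (adjusted p = 0.000792) and -0.26 ± 0.05 in plasma (adjusted p = 0.00121). ARRDC4, an arrestin-domain gene known as a target of those factors, averaged 35.1 ± 0.748 TPM in PRP, 34.5 ± 1.89 TPM in plasma and 54.3 ± 1.08 TPM in control (SD, n = 4 each). It differed by -0.62 ± 0.04 in PRP (adjusted p = 9.0e-08) and -0.64 ± 0.04 in plasma (adjusted p = 8.6e-08). TXNIP, the relative of ARRDC4 that restrains glucose uptake, had -0.19 ± 0.08 in PRP (adjusted p = 0.0641) and -0.17 ± 0.08 in plasma (adjusted p = 0.103) and did not pass. The gene that rose in PRP was MYC, at 0.21 ± 0.09 in PRP (adjusted p = 0.0468) and 0.06 ± 0.09 in plasma (adjusted p = 0.579). TXNIP, MYC, GBE1, PYGB, PGLS, RPIA, ME2 and PC were named after their values were seen. In PRP against plasma 0 genes of the 8 lists passed. Calls in these lists are those on log2(TPM + 1), and small falls could depend on that scale. On reads scaled by median of ratios, EMB differed by -0.04 in PRP and -0.10 in plasma. On the same reads DLD differed by -0.04 in PRP, HIF1A by -0.08 in PRP and -0.13 in plasma, and BSG by 0.55 in PRP and 0.54 in plasma.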

How the data were processed

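Per the submitters' processing notes, Salmon was used with build hg38; no version or transcript set was given in the sources used here. Per the file headers, the deposited table of each library lists for 20375 genes the effective length, the TPM and the estimated count of reads, written with decimal commas. For each library, dividing the estimated counts by effective length and rescaling returned the deposited TPM of all 20375 genes. RNA was captured by its polyA tail, per the labels' protocols.

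The members and the gene lists were chosen with earlier results of these data known. Groups were compared on log2(TPM + 1) by limma-trend, two-sided (R 4.3.3 with limma 3.58.1), for the 12517 genes that reached 1 TPM in 4 libraries or more. All 12 libraries entered with 1 term per group and 9 residual degrees of freedom, and p-values were adjusted by Benjamini-Hochberg over all tested genes at 0.05. TPM is relative to the other genes of a library, so a change in a few abundant genes moves the rest. No count model was run, and voom, also from limma, served as the alternative for estimated reads. All members were named, and of each other list up to 4 called genes with the smallest adjusted p over the 2 comparisons with control. Other genes named are marked as such. A few genes of these lists are not reported here. The main fit did not pair libraries by replicate number, and whether equal numbers mark paired libraries is not known. The correlation of deviations was over 0.1 for 5 of 12 same-numbered pairs. No pair of libraries agreed within counting noise. The scripts were tested on simulated data. Positions are those of GENCODE release 29 (GRCh38) and promoters those of RefSeq (GRCh38.p14). Alternatives covered 2 pseudocounts, 2 filters, median centring, voom at 2 scalings, only the 8 libraries compared, a replicate block, each library left out and the 3 libraries numbered 1 left out, which makes 22.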

Additional observations from a re-analysis of the deposited data

Results flagged for a closer look

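In PGAM1, PRP replicate 2 stood apart from the other PRP libraries, at 818.5 TPM against 786 to 788 TPM in the other 3. It was the only such case among the 102 groups of 4 libraries checked, 34 genes in 3 groups each, where chance alone gives about 5.1. Every PRP library of PGAM1 still lay above every plasma and every control library.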

How the results depend on the processing

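No difference of any of the 34 genes that passed changed sign under the 22 alternatives, and the members' counts of calls stayed within 1.5 times of those reported. Leaving out 1 library at a time gave 15 to 16 genes higher and 7 to 9 lower in PRP against control, 12 to 13 higher and 10 to 12 lower in plasma against control, and 0 members in PRP against plasma. With the replicate block, 16 genes were higher and 9 lower in PRP, and 13 higher and 12 lower in plasma, and 9 genes of all passed in PRP against plasma. The block added the calls of PFKM in plasma (adjusted p = 0.0416) and PFKFB4 in PRP (adjusted p = 0.0472), and the PRP call of PDK2 was lost (adjusted p = 0.0582). For both comparisons with control, the shares of all tested genes called with 1 library left out or with the block are not given here. How steady the members' counts were beside all genes can therefore not be read from them. Whether equal numbers mark paired libraries cannot be told from the correlations, because their ranges overlap. They ran between -0.07 and 0.30 for same-numbered pairs and between -0.22 and 0.20 for the others. Of the 12 libraries, 5 correlated best with their own number, and the library numbered 1 had the lowest mitochondrial share in every group. Within each group, replicates 1 and 2 differed less in reads than replicates 1 and 3. As a multiple of counting noise, the mean squared differences were 8.7 against 20.3 in PRP and 9.0 against 21.9 in plasma. In control they were 7.4 against 32.8. Replicates 3 and 4 were also close, at 7.3 in PRP, 4.6 in plasma and 3.8 in control. What this split reflects was not tested. Over all genes the 8 calls in PRP against plasma became 4 with no filter on low values, 13 with voom at total scaling, 16 with only the 8 libraries compared and 1 without the 3 libraries numbered 1, and ran between 4 and 14 with 1 library left out. The cause was not tested. SLC2A3 does not reach a filter of 5 TPM in 4 libraries, which leaves 33 members. Calls near the threshold, those of PDK2, PKM and MPC1 above all, moved with the setting, and a p that misses the threshold does not show that levels were equal. With 4 libraries a group the standard error of a member's difference was 0.03 to 0.13 on the log2 scale.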
